A study of Zea mays with 4 samples.

Results

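The loci described here were low or listed at 0 at control nitrogen and present at low nitrogen. They were chosen by level alone, as gene-named loci below 0.5 FPKM in both control libraries and at 3 FPKM or more in both low-nitrogen libraries. FPKM is the number of sequenced fragments scaled by transcript length and by library size. Of 26947 gene-named loci in the table, 6 met the thresholds, a share of 0.0223%. Since the levels of both groups chose them, the difference between low and control nitrogen in these loci is a description and carries no test. For 2 of the 6 no other entry of the gene went against the name "genes switched on at low nitrogen", although neither was at 0 at control nitrogen. Both left the set with a control ceiling of 0.25 FPKM or a low-nitrogen floor of 5 FPKM. The other 4 were second entries of genes whose other entry, at identical coordinates, was above 0 in both control libraries.

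Leaf 6 of hydroponically grown maize was sampled in its elongation zone, and all plants were of B73, the inbred line behind the maize reference genome; plant age and harvest time are not given in the labels. The LN group was 2 libraries from plants given 0.04 mM nitrogen, and the HN group, the control, 2 libraries from plants given 4 mM. Whether the libraries of 1 group derive from different plants is not stated, so p-values measure the spread between these samples alone, which may be technical. The HN libraries are called HN1 and HN2 in the order of their columns, which carry the same name, and neither is paired with LN1 or LN2. The HN libraries were less alike than the LN libraries, with FPKM totals of 666397 in LN1 and 710263 in LN2, against 814307 in HN1 and 1113330 in HN2.

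Nitrogen supply reaches leaf growth through the production and lengthening of cells, and cells that stop lengthening go on to stiffen their walls. Laccases are copper enzymes of the cell wall that oxidize lignin precursors, so that these join into the lignin of secondary walls. Proteins of the CslF group of cellulose synthase-like enzymes make mixed-linkage glucan, a wall polymer of grasses that is abundant in elongating tissue. A transcript that appears in a bulk sample can come from more cells of a type or from more RNA per cell, and these cannot be told apart here.

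The gene names of the 6 loci were looked up in a RefSeq gene table. It belongs to the assembly Zm-B73-REFERENCE-NAM-5.0, so no position was taken from it. Of the 6, 4 matched a single gene and 2 matched none. Laccase-13 is a name of GRMZM2G132169 and CslF6-1 a name of GRMZM2G110145. TIDP3136, listed for GRMZM2G095404, carries no stated function. GRMZM2G320521 matched a gene without a further name, and GRMZM2G145935 and GRMZM2G451679 had no match, so no role is given for these 4 genes.

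Laccase-13 (GRMZM2G132169, chromosome 3, 183701020 to 183703536, B73 RefGen_v3 as for all positions here) had 4.23 FPKM in LN1 and 6.25 FPKM in LN2, against 0.443 FPKM in HN1 and 0.403 FPKM in HN2. Both LN libraries stood well above both HN libraries, and the HN pair was close together. The mean was 5.24 ± 1.43 FPKM in LN and 0.423 ± 0.0279 FPKM in HN (SD, n = 2 each), a ratio of means of 12.4. The LN libraries differed by a factor of 1.48.

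GRMZM2G095404 (chromosome 6, 118971437 to 118973183) had 3.76 FPKM in LN1 and 4.89 FPKM in LN2, against 0.497 FPKM in HN1 and 0.234 FPKM in HN2. Its groups were also far apart, although HN1 lay just under the ceiling of the rule and was 2.12 times HN2. The mean was 4.32 ± 0.796 FPKM in LN and 0.366 ± 0.186 FPKM in HN (SD, n = 2 each), a ratio of means of 11.8. Neither of these 2 genes was listed at 0 in any library. Each had a single entry in the table.

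The other 4 loci were listed at 0 in both HN libraries, and for them no ratio of FPKM is given. GRMZM2G145935 (chromosome 5, 9694193 to 9724429) had 29.0 FPKM in LN1 and 32.8 FPKM in LN2. The CslF6-1 locus GRMZM2G110145 (chromosome 10, 77282590 to 77289441) had 3.05 FPKM in LN1 and 22.9 FPKM in LN2. GRMZM2G320521 (chromosome 3, 19762668 to 19764751) had 20.3 FPKM in LN1 and 8.04 FPKM in LN2, with a value of 1.63e-17 FPKM in HN2 that is counted here as 0. In GRMZM2G451679 (chromosome 6, 13968068 to 13971996) the level was 3.15 FPKM in LN1 and 23.8 FPKM in LN2. These 4 loci thus reached higher LN levels than Laccase-13 or GRMZM2G095404 in at least 1 library, and 3 of them differed strongly between the LN libraries.

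**Figure D1:**
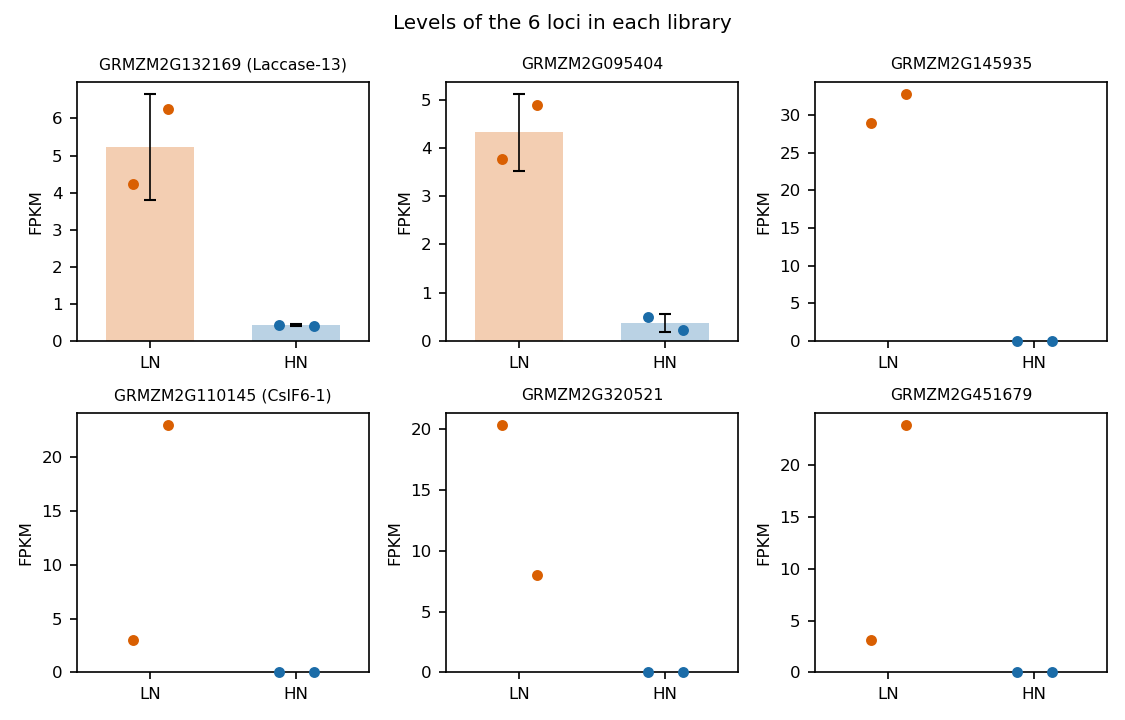
FPKM of the 6 loci, with LN (orange) left of HN (blue) and 1 point per library (the first library on the left); the y axes differ between panels. Bars and error bars give the mean and SD (n = 2) and are drawn only for Laccase-13 and GRMZM2G095404, since the other 4 loci sit at 0 in both HN libraries.

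All 4 loci at 0 had a second table entry with the same gene name and the same coordinates. For CslF6-1 that other entry held 286 FPKM in LN1 and 228 FPKM in LN2, against 189 FPKM in HN1 and 305 FPKM in HN2. CslF6-1 transcripts were therefore abundant in all 4 libraries, and the groups overlapped. The limma log2 change of the other entry was 0.09 (SE 0.36, 95% confidence interval -0.80 to 0.99, adjusted p = 0.878). Under quantile normalization it was 0.92 (limma adjusted p = 0.0376), so its call depended on the scaling. The entry at 0 in HN amounted to 1.07% of the other entry's FPKM in LN1 and to 10.04% in LN2.

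GRMZM2G320521 showed the same arrangement. Its other entry had 206 FPKM in LN1 and 181 FPKM in LN2, against 124 FPKM in HN1 and 280 FPKM in HN2. Here too the LN values lay between the HN values, and the gene was abundant at both nitrogen levels. The limma log2 change was 0.05 (SE 0.44, 95% confidence interval -1.04 to 1.15, adjusted p = 0.943). Under quantile normalization the change was 0.83 (limma adjusted p = 0.0888), so its size depended on the scaling. The entry at 0 in HN amounted to 9.83% of the other entry in LN1 and 4.43% in LN2.

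In GRMZM2G145935 and GRMZM2G451679 the entry at 0 in HN was the larger of the pair in LN. The other entry of GRMZM2G145935 had 7.93 FPKM in LN1 and 8.997 FPKM in LN2, against 5.21 FPKM in HN1 and 5.90 FPKM in HN2. Its groups did not overlap, but the difference did not pass the threshold, with a log2 change of 0.53 (SE 0.21, 95% confidence interval 0.0077 to 1.05, limma adjusted p = 0.151). A further gene, GRMZM2G415791, shared these coordinates, at 7.04 FPKM in LN1 and 8.78 FPKM in LN2, against 6.58 FPKM in HN1 and 3.38 FPKM in HN2. The other entry of GRMZM2G451679 was weak throughout, at 1.05 FPKM in LN1 and 0.960 FPKM in LN2, against 0.699 FPKM in HN1 and 0.125 FPKM in HN2, and did not reach the filter of the test.

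**Figure D2:**
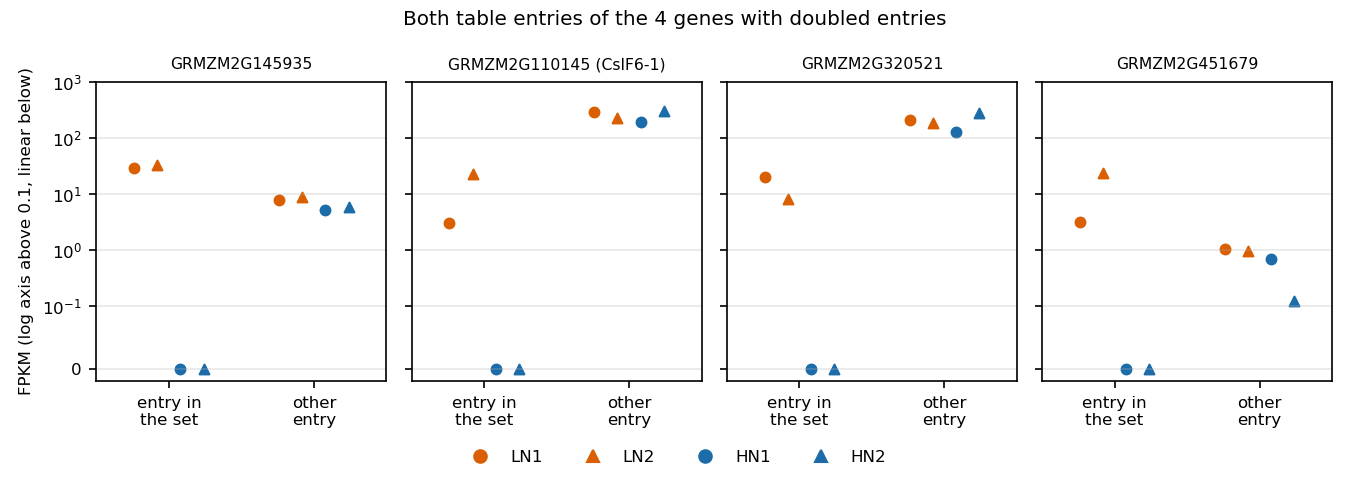
FPKM of both table entries of the 4 genes, by library (LN orange, HN blue; circles for the first and triangles for the second library of a group), on an axis that is logarithmic above 0.1 and linear below. The entries in the set are at 0 in both HN libraries, while the other entries of CslF6-1 and GRMZM2G320521 lie above 100 FPKM in all 4 libraries.

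Doubled entries of this kind were uncommon in the table. Of the gene-named loci, 830 belonged to 409 genes with more than 1 entry at the same coordinates, a share of 3.08%, against 4 of the 6 loci in the set. Among the 830, 36 were listed at 0 in both HN libraries, and these 4 were the ones at 3 FPKM or more in both LN libraries. With LN and HN swapped in the rule, 26 loci met the thresholds and 0 of them had a doubled entry. When FPKM was summed over entries of the same gene and coordinates, which was added once the doubled entries had been seen, the set came down to 2, Laccase-13 and GRMZM2G095404. Summed GRMZM2G451679 had 4.19 FPKM in LN1 and 24.8 FPKM in LN2, against 0.699 FPKM in HN1 and 0.125 FPKM in HN2, so HN1 alone took it out. Summed GRMZM2G145935 had 36.9 FPKM in LN1 and 41.8 FPKM in LN2, against 5.21 FPKM in HN1 and 5.90 FPKM in HN2. The summed groups of CslF6-1 and GRMZM2G320521 overlapped. These sums include the entries chosen by the rule. In 364 of the 409 genes the entries stood in different passes of the locus numbering along the chromosome, as in all 4 genes here. The table gives no strand, so sense and antisense reads cannot be told apart.

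The q-values in the authors' deposited table were low for the 2 genes with a single entry and not for the other 4. Its log2 fold change of LN over HN was 3.50 for Laccase-13 and 3.36 for GRMZM2G095404, with q-values of 6.32e-11 and 6.94e-08. For the 4 loci at 0 the authors' deposited table listed q-values of 0.237 for GRMZM2G145935, 0.255 for CslF6-1, 0.363 for GRMZM2G320521 and 0.521 for GRMZM2G451679. Thus 2 of the 6 had a deposited q-value under 0.05, where 4.78% of gene-named loci had one with a higher level in LN. limma on log2(FPKM + 1) called 4 of the 6 higher, GRMZM2G145935 and GRMZM2G320521 among them, against 1.18% of 22489 tested loci called higher and 4.98% called in either direction. The same values chose these loci, so neither count is a result about them. The limma count was 2 of the 6 with a pseudocount of 0.1 and without LN2, and 0 of the 6 with all loci tested, where 1 locus in the whole table was called and 8174 had an unadjusted p under 0.05.

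The deposited fold changes of the loci at 0 recurred at many other loci. GRMZM2G451679 shared its value in the authors' deposited table, 3.66, with 137 other loci at 0 in both HN libraries (within 0.0001). In those the LN1 level ran from 0.0120 to 2.96 FPKM with a median of 0.0782, against 3.15 FPKM in GRMZM2G451679. CslF6-1, at 4.35 in the authors' deposited table, shared its value with 9 other loci, whose LN2 level ran from 0.149 to 4.23 FPKM, against 22.9 FPKM in the CslF6-1 entry.

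The remaining pair lay inside the range of their counterparts. GRMZM2G145935, also at 4.35 in the authors' deposited table, had 14 counterparts with LN1 levels from 0.0673 to 74.7 FPKM and a median of 0.257. GRMZM2G320521, at 4.05 in the authors' deposited table, had 10 with LN1 levels from 0.0883 to 29.0 FPKM and a median of 0.784. Loci with the same deposited fold change therefore covered a wide span of FPKM. The high place of the 4 loci in that span follows from the rule, which required 3 FPKM or more in both LN libraries, and is not a result about them.

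**Figure D3:**
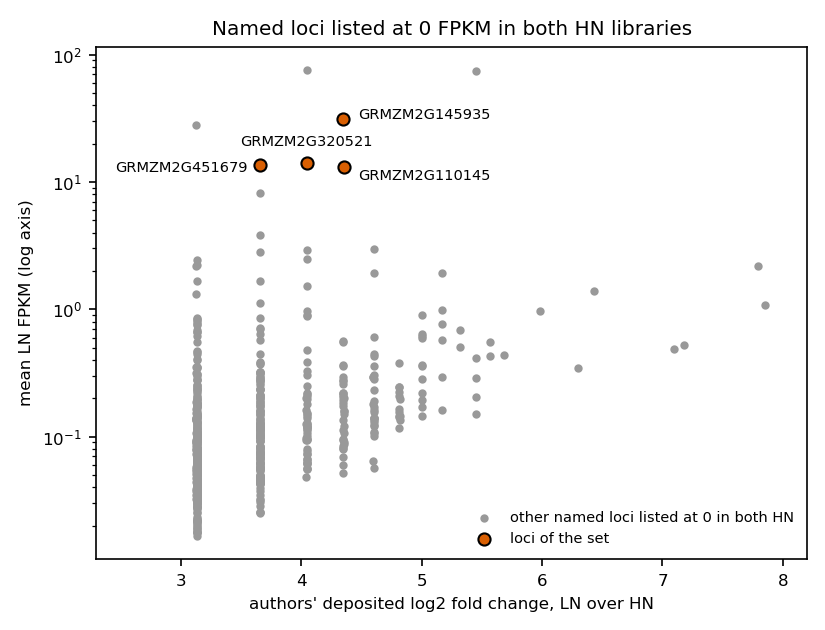
Mean LN FPKM (log axis) of gene-named loci listed at 0 in both HN libraries, against the authors' deposited log2 fold change of LN over HN. Many points share a fold change, and the 4 loci of the set (orange) have deposited values from 3.66 to 4.35; their height was fixed by the rule, which took loci at 3 FPKM or more in both LN libraries.

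GRMZM2G145935 also carried values that recur in short loci. In 6 loci with a span of 240 bases, a length picked after the shared values had been seen, all 6 LN1 levels were whole multiples of 7.24 FPKM (within 0.01), and the 3 LN2 levels above 0 were whole multiples of 10.9 FPKM. In HN1 all 4 levels above 0 were whole multiples of the lowest, 9.59 FPKM, but in HN2 only 1 of 2 was, the lowest itself at 45.9 FPKM. The LN1 level of GRMZM2G145935 was 4 times the first step and identical to that of 2 of these loci. Its LN2 level was 3 times the second step and identical to that of 1 of them. Its own span in the table was 30237 bases, the longest of the 6 and far above the median of 3857 bases over gene-named loci. The shortest was GRMZM2G095404 with 1747 bases.

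Loci at 0 in both HN libraries were common, but seldom reached the level required in LN. Of 626 such gene-named loci, 611 had a lower LN value under 1 FPKM, 11 had one from 1 to under 3 FPKM, and 4 had 3 FPKM or more. The median of the lower LN value was 0.0470 FPKM. In the opposite direction 321 loci were at 0 in both LN libraries, and 7 of these had 3 FPKM or more in both HN libraries. Relative depth, estimated from the lowest FPKM values, was 91.6% in LN2, 75.8% in HN1 and 64.4% in HN2 with LN1 as 100%. The shallower HN libraries had more loci at 0, and the part of depth in the set was not tested.

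Agreement between the LN libraries separated the loci further. Over 12364 gene-named loci at 3 FPKM or more in both LN libraries, with LN means up to that of GRMZM2G145935, the higher LN value was 1.10 times the lower at the median and 1.42 times at the 95th percentile. The ratio was 7.56 in GRMZM2G451679, and 3 of the 12364 loci, itself included, had one as large. In CslF6-1 it was 7.51, reached by 4 loci. GRMZM2G320521 had 2.52, reached by 21 loci or 0.170%.

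The other 3 loci of the set differed less between LN1 and LN2. Laccase-13, at 1.48, was matched or passed by 3.70% of the 12364 loci. GRMZM2G095404, at 1.30, was matched or passed by 11.0%. GRMZM2G145935, at 1.13, was close to the median.

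**Figure D4:**
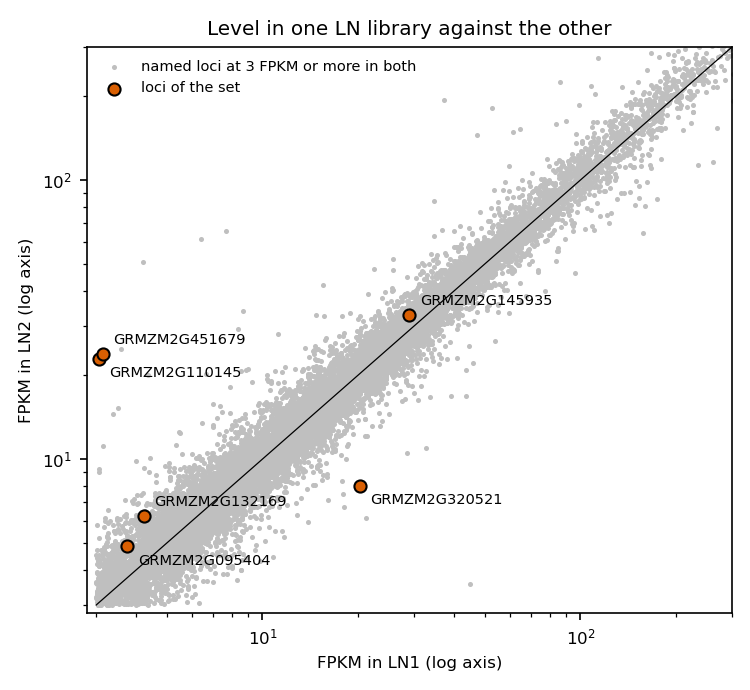
FPKM in LN2 against FPKM in LN1 (both log axes) for gene-named loci at 3 FPKM or more in both, with the line of equality. The loci of the set (orange) include GRMZM2G451679 and CslF6-1, whose LN values differ by factors of 7.56 and 7.51 and which lie far from the line.

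Laccase-13 was 1 of 5 loci with a laccase name in the reference table, and the highest LN level among them belonged to Laccase-17. Laccase-17 (GRMZM2G072808, chromosome 3, 180720547 to 180723394) had 8.46 FPKM in LN1 and 9.99 FPKM in LN2, against 1.66 FPKM in HN1 and 3.09 FPKM in HN2. It rose by 1.63 on the log2(FPKM + 1) scale (SE 0.28, limma adjusted p = 0.0459). The call ended with a pseudocount of 0.1 (adjusted p = 0.0551), with all loci tested (0.0812), without LN1 (0.236) and without LN2 (0.245).

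A second gene named Laccase-13 (GRMZM2G336337, chromosome 8, 169584384 to 169589263) had 2.72 FPKM in LN1 and 3.63 FPKM in LN2, against 0.940 FPKM in HN1 and 0.499 FPKM in HN2. Its groups did not overlap, and its log2 change of 1.28 (SE 0.25) missed the threshold (limma adjusted p = 0.0527). It passed under quantile normalization (limma adjusted p = 0.0474). It did not pass with median centring (0.0518), a pseudocount of 0.1 (0.0692) or all loci tested (0.0835). With a library left out the change ran from 1.10 to 1.47. The third Laccase-13 (GRMZM5G814718, chromosome 1, 46415922 to 46418936) had 2.17 FPKM in LN1 and 2.42 FPKM in LN2, against 1.22 FPKM in HN1 and 1.84 FPKM in HN2. The change of this gene was 0.39 (SE 0.24, 95% confidence interval -0.20 to 0.98, limma adjusted p = 0.298).

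The fifth laccase, another Laccase-17 (GRMZM2G305526, chromosome 1, 39932859 to 39936266), was weak at 0.238 FPKM in LN1 and 0.388 FPKM in LN2, against 0.282 FPKM in HN1 and 0.296 FPKM in HN2. Its groups overlapped and it was not tested. Only names that begin with lacc were taken, so laccases under other names are not covered. The 5 loci with a laccase name thus ranged from overlapping groups to the contrast of the member on chromosome 3. Of these, 4 had both LN values above both HN values. The member is among these 4 because of the rule. The share of all loci with such groups was not counted, so the 4 are a description and not a result about laccases. Their sequences were not analysed here, so the level of each is uncertain where similar copies share reads.

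**Figure D5:**
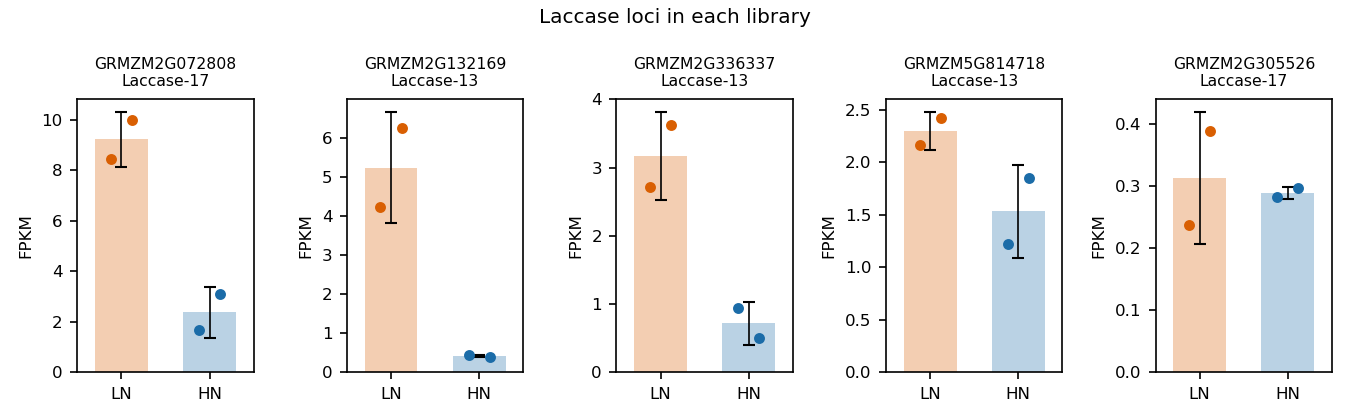
FPKM of the 5 laccase loci by library, with LN (orange) left of HN (blue); points are libraries, bars are means and error bars SDs (n = 2), and the y axes differ between panels. In 4 of the 5 both LN points are above both HN points, which the rule required of GRMZM2G132169, and in Laccase-17 (GRMZM2G305526) they overlap.

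Markers of vascular and secondary-wall cells are a list that holds these laccases and the member among them. By limma 4 of its 14 tested loci were called higher and 0 lower, where 1.18% of all tested loci were called higher. At an unadjusted limma p under 0.05 the counts were 6 and 0, where 7262 of all 22489 tested loci reached it in either direction. In the authors' deposited table they were also 6 and 0, where 4.78% of gene-named loci were called higher. Laccase-13, chosen by the rule on these same values, is in each of these counts and in the median that follows. Their median log2 change was 0.42, beside 0.07 over all tested loci, and the summed level of the 20 loci overlapped, at 428 to 431 FPKM in LN and 310 to 446 FPKM in HN. By limma 855 of all 22489 tested loci were called lower. Dividing-cell markers, among them histone and replication genes, fell in 16 of 36 tested loci, with a median log2 change of -1.84. Their sums were 1943 to 2236 FPKM in LN and 5574 to 10688 FPKM in HN. Green-cell markers fell in 6 of 17 tested loci, with a median of -1.66 and sums of 2779 to 4895 FPKM in LN and 8951 to 15836 FPKM in HN. Of 7 epidermal and cuticle markers 1 rose, with a median of 0.39 and sums of 1332 to 1462 FPKM in LN and 1511 to 3929 FPKM in HN. None of these markers was listed at 0 throughout. The part of such shifts in cell make-up in the level of Laccase-13 was not tested.

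Of the wider lists, that of cell wall genes (laccases, expansins, cellulose synthases and relatives) held the Laccase-13 and CslF6-1 entries. By limma 4 of its 33 tested loci rose, beside 1.18% of all tested loci, with a median log2 change of 0.45. Laccase-13 is among these 4, and both entries, chosen by the rule on the same values, enter the median. The lists of nitrogen uptake and assimilation, NF-YA subunits, transcription factors, cytochrome P450s, transporters and hormone enzymes held 0 loci of the set. In NF-YA, a subunit family of the CCAAT-binding factor, 3 of 9 tested loci rose, with a median of 1.48. Over all 22489 tested loci limma called 266 higher and 855 lower. Of 208 tested transcription factors 2 rose and 2 fell, with a median of 0.23. An unadjusted limma p under 0.05 was reached by 39 that were higher and 12 that were lower. Over all 22489 tested loci 7262 reached it, and their split by direction was not counted. The authors' deposited table called 21 of all 290 listed transcription factors higher and 6 lower, beside 1295 higher and 3064 lower of the 22489 tested loci. The limma calls left after adjustment were too few to show a balance. Of 15 nitrogen loci 2 fell, with a median of -0.57. Among 11 cytochrome P450 loci 1 rose and 4 fell (median -0.99), and among 23 hormone enzyme loci 1 rose and 2 fell (median -0.096). The hormone enzyme list was drawn by name alone, with patterns such as nced, lox, ugt and tps, and the role of each locus was not checked. limma called 0 of 35 transporter loci (median 0.12). An unadjusted limma p under 0.05 was reached by 6 that were higher and 1 that was lower, beside 7262 of all 22489 tested loci. The authors' deposited table called 2 transporter loci in each direction, beside 4359 of the 22489 loci. For most of the lists the authors' deposited table called more loci than limma, with 32 dividing-cell and 12 green-cell markers lower, 6 NF-YA loci higher, 7 nitrogen loci lower, 8 cell wall loci higher and 2 lower, 1 cytochrome P450 locus higher and 7 lower, and 2 hormone enzyme loci higher and 7 lower.

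The 6 loci were not neighbours. Chromosomes 3 and 6 held 2 each, 163.9 Mb and 105.0 Mb apart, and chromosomes 5 and 10 held 1 each. Laccase-13 had a single other locus within 50 kb, GRMZM2G432662 at a distance of 5240 bases. That gene was at 31.0 FPKM in LN1 and 32.2 FPKM in LN2, against 23.6 FPKM in HN1 and 43.1 FPKM in HN2, so its groups overlapped (log2 change -0.01, SE 0.31, limma adjusted p = 0.979). GRMZM2G095404 had 0 other loci within 50 kb.

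The thresholds cut through a run of like genes. Just above the HN ceiling, GRMZM2G100360 had 3.44 FPKM in LN1 and 4.45 FPKM in LN2, against 0.542 FPKM in HN1 and 0.348 FPKM in HN2. GRMZM2G133675 had 4.00 FPKM in LN1 and 3.26 FPKM in LN2, against 0.568 FPKM in HN1 and 0.609 FPKM in HN2. The third was GRMZM2G700291, named SYMRK in the reference table, with 3.32 FPKM in LN1 and 4.35 FPKM in LN2, against 0.429 FPKM in HN1 and 0.705 FPKM in HN2. All 3 lay close to GRMZM2G095404 in level.

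Just under the LN floor, GRMZM2G523414 had 6.82 FPKM in LN1 and 2.99 FPKM in LN2, against 0.215 FPKM in HN1 and 0.238 FPKM in HN2. GRMZM5G880993 was listed at 0 in both HN libraries, with 2.96 FPKM in LN1 and 13.3 FPKM in LN2. The next was GRMZM2G351469, with 2.67 FPKM in LN1 and 6.33 FPKM in LN2, against 0.177 FPKM in HN1 and 0 in HN2. None of these 6 outside loci had a doubled entry. With a ceiling of 1 FPKM the rule took 17 loci, 5 of them doubled entries, while with a floor of 5 FPKM it took 2, both doubled. A further 11 loci without a gene model name met the same thresholds.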

How the data were processed

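The authors' deposited table held 1 FPKM value per locus and library, and the authors' comparison of LN over HN as a log2 fold change with its p-value and q-value, per the file headers. TopHat2, edgeR and the build B73 RefGen_v3 stand without versions or roles in the submitters' processing notes; the tool that made the FPKM is not given in the sources used here. Absolute depth is unknown, which FPKM does not keep. The HN source label writes nM, its description mM, and mM was used. The table's 31324 rows gave 30378 loci, 3431 without a gene model name.

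The members and lists were chosen with earlier results of these data known. Loci were compared with limma 3.58.1 (R 4.3.3) on log2(FPKM + 1), for loci that reached 1 FPKM in no fewer than 2 libraries, with Benjamini-Hochberg adjustment over all 22489 tested loci and a threshold of 0.05. The residual degrees of freedom were 2. limma was tested on simulated data. Values under 1e-06 FPKM counted as 0. The rule for named genes took members by level and name, which covered all 6, and the 3 loci nearest outside each threshold; other entries, laccases and neighbours within 50 kb were named after their values were seen. The place of loci in exons or UTRs was not analysed here. Alternatives changed the thresholds, pseudocount, filter, scaling and libraries. Protein and promoter comparisons were not made.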

Additional observations from a re-analysis of the deposited data

How the results depend on the processing

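No paired analysis was possible because both HN columns carry the same name and so no replicate number. The set of 6 loci became 17 with an HN ceiling of 1 FPKM, 16 with an LN floor of 2 FPKM and 2 with a floor of 5 FPKM. It became 11 with equal FPKM totals and 2 with entries of a gene summed. Under quantile normalization 3 remained, 2 of them doubled entries, so a gene with a single entry was lost. With a ceiling of 0.25 FPKM 4 remained, all of them doubled entries. Leaving out a library relaxes the rule and gave 14 to 54 loci, 22 without LN1, 14 without LN2, 54 without HN1 and 15 without HN2. limma called 1121 loci (266 higher, 855 lower), 101 with a pseudocount of 0.1, 1 with all loci tested, 2625 under quantile normalization (942 higher, 1683 lower) and 76 to 10470 with a library left out (76 without LN1, 84 without LN2, 10470 without HN1, 4585 without HN2), where the lone library of a group is assumed to vary like the other group; the authors' deposited table called 4359 of the tested loci. The causes were not tested. The median log2(FPKM + 1) change of the set, 3.32 beside 0.07 over all tested loci, is the midpoint of a pair of loci at 0 in HN and so set by the pseudocount; it was 6.44 with a pseudocount of 0.1 and 2.04 to 3.88 with a library left out. The near-zero changes of the abundant entries turned to -0.0051 (CslF6-1) and -0.043 (GRMZM2G320521) under median centring, and to 0.92 and 0.83 under quantile normalization. With a library left out they ran from -0.25 to 0.43 and from -0.53 to 0.64. FPKM without read numbers limits what can be said of loci at 0.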
